A study of Macaca mulatta with 4 samples.

Results

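HIF-1α is the part of the transcription factor HIF-1 whose amount is set by oxygen. Oxygen-dependent hydroxylation marks the protein for destruction in well-oxygenated cells. When oxygen falls, as in a heart region whose artery is blocked, HIF-1α accumulates, pairs with its partner ARNT and binds hypoxia response elements near genes of glycolysis, vessel growth and cell survival. A chromatin immunoprecipitation (ChIP-seq) peak is a stretch of the genome where the caller found more antibody-enriched reads than in input chromatin, and its width is the length of that stretch. The regions described here are the wide HIF-1α peaks, of 400 bp or more, that were called in the early infarct and had no overlapping peak in the late infarct. They number 692, which is 5.18% of the 13351 peaks at 6 h, and the series holds 20750 peaks in all.

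The study examined copper and HIF-1 in rhesus macaques with myocardial infarction, made by ligation of the left anterior descending (LAD) coronary artery. The early group is heart tissue of male animals 6 h after the ligation and the late group is heart tissue of male animals 4 weeks after it. Each time point has 1 ChIP library made with an abcam antibody to HIF-1α and 1 input library made without antibody, so the 4 samples include no uninfarcted heart. How many animals stand behind a library, and their age, is not given in the sources used here. Each of the 2 peak lists gives the position of every called peak and nothing on its strength, and read depth is unknown. A region listed only at 6 h is therefore one that was called at 6 h and not called at 4 weeks, which is not the same as an absence of binding. The lists hold no expression values, so the tissue label could not be checked against marker genes. With 1 ChIP library per time point there is no replicate check on any difference between the lists.

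The members were chosen by measured values, namely the width of the 6 h peak and the lack of a 4-week peak over it. Both are given below as description and nothing is tested with them. Of the 13351 peaks at 6 h, 7165 were on the 17 chromosomes used, which are chromosomes 1 to 18 without chromosome 16. Of these, 1048 were 400 bp or wider, and 854 of the wide ones had no base in common with a 4-week peak. The rule also leaves out the last 2 Mb at each chromosome end, which removed 55, and runs of 5 or more 6 h peaks with gaps of at most 10 kb, which removed 107. Chromosome 17 alone held 54 of those 107 (50.5%), so the run rule bears on that chromosome more than on the 11 others it touched. The chromosomes, chromosome ends and runs kept by these limits are called the searched stretches below, and they held 6396 peaks of any width at 6 h.

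Positions are given in the coordinates of the peak lists, counted from 1, and the genome build is not given in the sources used here. Genes, promoters and DNA sequence of the regions were not analysed here.

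The widths of the members ran from 400 to 1159 bp, and most lay close to the lower limit. The median was 473 bp, with quartiles of 430 and 549 bp, and together the members covered 353 kb. Widths of 400 to 499 bp accounted for 424 of the 692 (61.3%), widths of 500 to 599 bp for 157 (22.7%) and widths of 600 to 799 bp for 88 (12.7%). Only 23 members (3.32%) reached 800 bp. The limit sets the number of members, which would be 1787 at 300 bp and 268 at 500 bp. At the lower limit the list showed no step: 3 members were exactly 400 bp and 5 were 401 bp, while 10 peaks just outside it were 399 bp and 3 were 398 bp. The 155 peaks of 400 bp or more in the same stretches that did overlap a 4-week peak had a median of 527 bp (quartiles 457.5 and 627 bp) and reached 1713 bp.

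**Figure D1:**
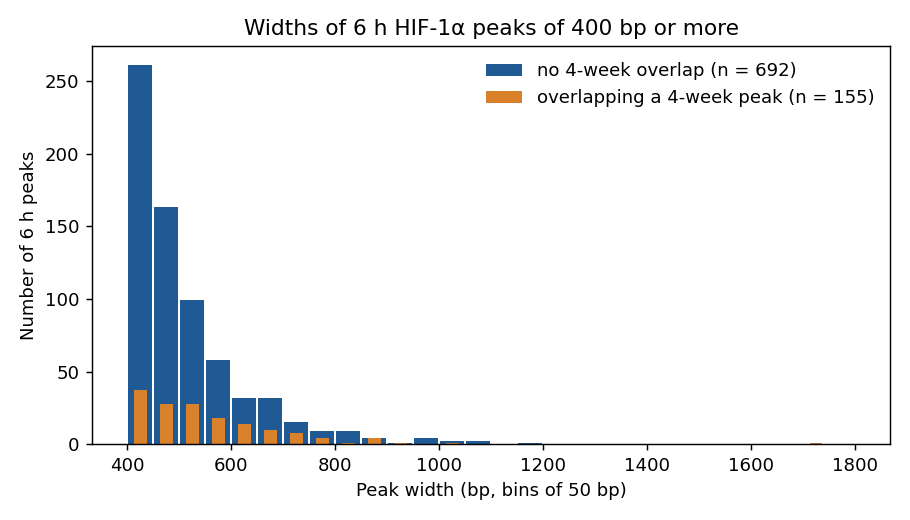
Number of 6 h HIF-1α peaks (y axis) by peak width in bins of 50 bp (x axis), for the 692 wide peaks with no 4-week overlap (broad bars) and the 155 wide peaks that overlapped one (narrow bars). The first bin holds 261 of the former and 37 of the latter, and no member is wider than 1159 bp.

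A missing 4-week counterpart was the usual state of a 6 h peak. Over all 6396 peaks in the searched stretches, 92.1% had no overlap with a 4-week peak. Among the 847 peaks of 400 bp or more the share was 81.7% (95% interval 78.9 to 84.2%), and since the rule used this overlap the members are not read as an excess of early-only sites. From narrow to wide, the share without overlap was 95.7% (95.0 to 96.4%) at 199 to 249 bp, 92.7% (91.1 to 94.2%) at 250 to 299 bp and 89.5% (87.6 to 91.1%) at 300 to 399 bp. Inside the wide range it was 86.7% (83.4 to 89.6%) at 400 to 499 bp, 77.3% (71.0 to 82.9%) at 500 to 599 bp and 71.0% (62.1 to 78.8%) at 600 to 799 bp. The 31 peaks of 800 bp or more had 74.2% without overlap, with an interval of 55.4 to 88.1%. Under a rule of 1 bp a longer peak also meets a 4-week peak more easily by construction, and these shares describe the choice of members and are not a test.

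**Figure D2:**
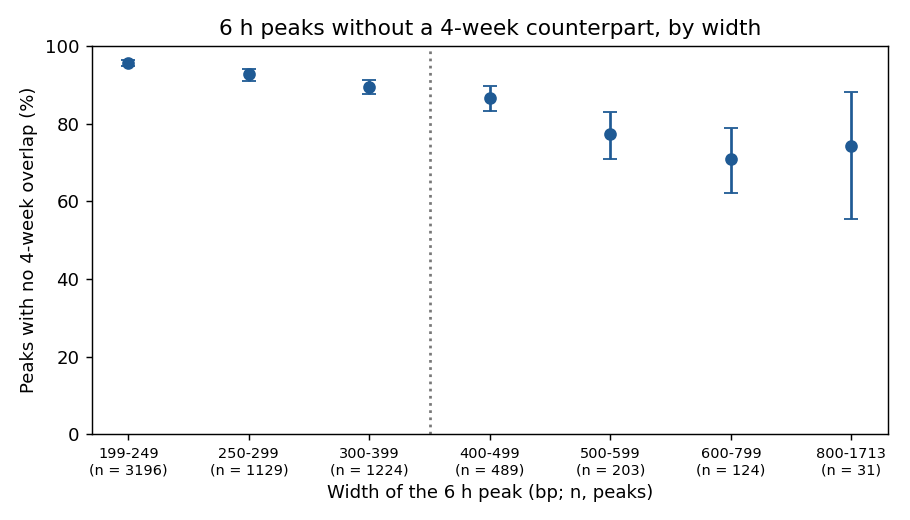
Share of 6 h peaks with no 4-week overlap (y axis, percent) by width class (x axis, bp), with exact 95% binomial intervals for counting error. The dotted line marks the 400 bp limit of the rule; the share is 95.7% in the narrowest class and between 71.0% and 86.7% in the classes to its right.

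The mirror-image set, wide 4-week peaks with no 6 h overlap under the same limits, held 286 peaks. For 4-week peaks the runs left out were counted in the 4-week list, so their stretches need not match the searched stretches. With each list held to its own limits, there were 2.03 times as many peaks of any width at 6 h as at 4 weeks. Wide ones without a counterpart were 2.42 times as many. As a share of all peaks without a counterpart, wide peaks made up 11.7% (10.9 to 12.6%) at 6 h and 10.9% (9.74 to 12.2%) at 4 weeks, and these intervals overlap. The median width of the 4-week set was also 473 bp. The part that reached 600 bp was 16.04% (13.4 to 18.99%) at 6 h and 16.8% (12.6 to 21.6%) at 4 weeks. At 800 bp or more there were 23 peaks at 6 h (3.32%, 2.12 to 4.95%) and 4 at 4 weeks (1.40%, 0.382 to 3.54%). At both limits the intervals of the 2 sets overlap. The longest single peaks were 1159 bp at 6 h and 921 bp at 4 weeks. Of the wide 4-week peaks, 65.0% (60.3 to 69.5%) had no 6 h overlap, a share that the length of the other list also affects.

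The widest member, at chr10:58114341-58115499, spanned 1159 bp. No other peak of either list was within 100 kb of it: the nearest 6 h peak was 118 kb away and the nearest 4-week peak 191 kb away. The next widest, at chr1:54866313-54867408 (1096 bp), was equally alone, with 161 kb to the nearest 6 h peak and 309 kb to the nearest 4-week peak. At chr6:131699171-131700234 the third spanned 1064 bp and had company on both counts. It lay 293 bp from another 6 h peak and 363 bp from a 4-week peak of 296 bp that overlapped a different 6 h peak. The 6 h list thus had a peak under that 4-week peak as well, and the wide region beside it was the part called only early.

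Chromosome 11 carried a member at 10959900 to 10960918 (1019 bp) and another at 8373012 to 8373963 (952 bp). The first had a 6 h neighbour at 856 bp and no 4-week peak closer than 831 kb. The second lay among 12 other 6 h peaks within 100 kb, with 1 4-week peak in that range, 38.7 kb away. Chromosome 6 had 2 more of the widest, at 164191626 to 164192635 (1010 bp), 521 kb from any 4-week peak, and at 105126720 to 105127670 (951 bp), 38.7 kb from one. A member of 999 bp at chr1:140175681-140176679 had a 4-week peak of 596 bp at 66.0 kb. A member of 945 bp at chr7:56290659-56291603 had one of 702 bp at 6.82 kb, the widest among the 4-week peaks nearest to the 15 widest members.

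For 3 more of the widest members the nearest 4-week peak was almost adjacent. At chr14:56909883-56910747 a member of 865 bp ended 58 bp before a 4-week peak of 435 bp. At chr1:192548624-192549488 a member of 865 bp began 518 bp after a 4-week peak of 365 bp, and another 6 h peak lay 437 bp away. At chr12:39262969-39263931 a member of 963 bp began 793 bp after a 4-week peak of 260 bp and its closest 6 h neighbour was 384 kb away. The remaining members of the widest 15 were chr3:36330156-36331031 (876 bp), chr13:93138928-93139781 (854 bp) and chr2:93356876-93357723 (848 bp). Their nearest 4-week peaks were at 197, 386 and 14.0 kb. In all, the 15 were spread over 10 chromosomes, 4 had a 4-week peak within 1 kb and 6 had none within 100 kb.

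On the other chromosomes the widest member was narrower. It spanned 787 bp on chromosome 17 (6542193 to 6542979), 743 bp on chromosome 9 (93246274 to 93247016), 726 bp on chromosome 15 (56937091 to 56937816) and 722 bp on chromosome 8 (22469396 to 22470117). On chromosome 5 it was 688 bp (37580560 to 37581247), on chromosome 18 678 bp (52285874 to 52286551) and on chromosome 4 671 bp (130082950 to 130083620). Those on chromosomes 4, 5, 15 and 18 had no other peak of either list within 100 kb. The one on chromosome 17 sat in a run of 4 peaks at 6 h, and the one on chromosome 8 had 4 other 6 h peaks and 4 4-week peaks within 100 kb.

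Along the genome the members were sparse and uneven. Their density over the 17 chromosomes was 0.289 per Mb (exact Poisson 95% interval 0.268 to 0.311), against 2.67 per Mb for 6 h peaks of any width in the same stretches. Chromosome 10 was the densest, with 50 members and 0.563 per Mb (0.418 to 0.742), followed by chromosome 7 with 71 and 0.429 per Mb (0.335 to 0.541) and chromosome 1 with 82 and 0.370 per Mb (0.294 to 0.459). These 3 had intervals above the density of all chromosomes. The sparsest were chromosome 18 with 10 members and 0.152 per Mb (0.0727 to 0.279) and chromosome 17 with 15 and 0.164 per Mb (0.0916 to 0.270). Chromosome 5 (34 members, 0.184 per Mb, 0.127 to 0.257) and chromosome 8 (26 members, 0.185 per Mb, 0.121 to 0.272) were also below it. The other 10 chromosomes had intervals that included the value of all chromosomes. Chromosome extents were taken from the last peak of either list and are lower bounds.

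**Figure D3:**
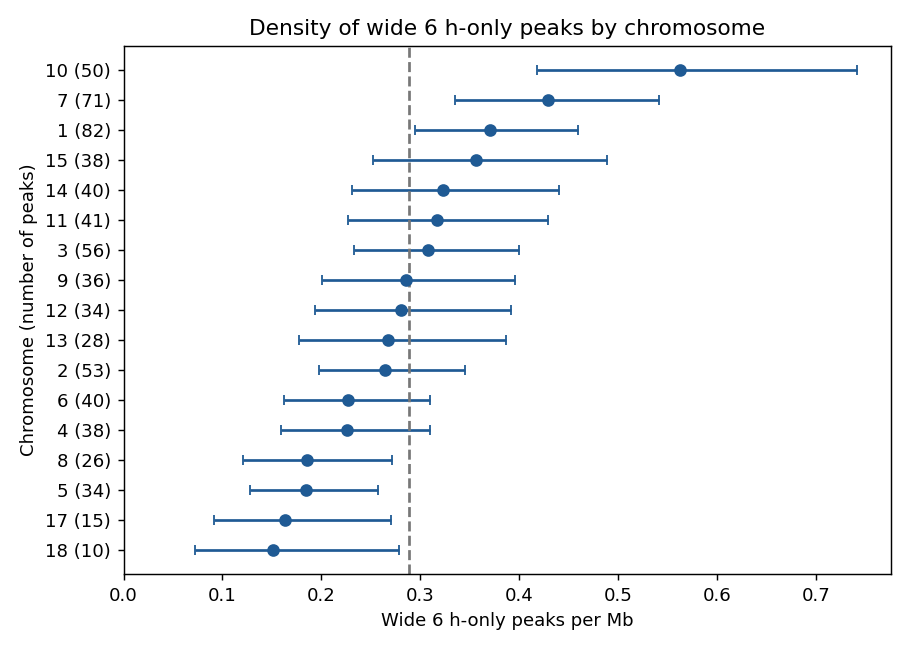
Wide 6 h-only peaks per Mb (x axis) on each of the 17 chromosomes (y axis, with the number of peaks), with exact Poisson 95% intervals and the density over all 17 as a dashed line. Chromosome 10 lies farthest to the right at 0.563 per Mb and chromosome 18 farthest to the left at 0.152 per Mb.

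Peaks of any width at 6 h were uneven in a similar way. Chromosome 10 had 4.33 such peaks per Mb and chromosomes 18, 5, 8 and 17 between 1.76 and 1.93 per Mb. Wide peaks made up 11.7% of the 6 h peaks without a counterpart, and on single chromosomes this share ran from 9.17% (4.49 to 16.2%) on chromosome 18 to 14.4% (11.4 to 17.9%) on chromosome 7. The interval of every one of the 17 chromosomes included 11.7%. On chromosome 17 the density was 0.753 per Mb (0.586 to 0.953) with the runs of 5 or more kept, against 0.164 without them, so its low place rests on the run rule. Densities also scale with the width limit: chromosome 10 had 1.26 per Mb at 300 bp and 0.236 at 500 bp, and chromosome 17 had 0.524 and 0.0218.

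Distance from the chromosome ends gave a shallow gradient. At 2 to 5 Mb from an end there were 48 members, or 0.471 per Mb (0.347 to 0.624). Farther in, the density was 0.306 per Mb (0.228 to 0.401) at 5 to 10 Mb, 0.312 (0.255 to 0.377) at 10 to 20 Mb, 0.277 (0.245 to 0.312) at 20 to 50 Mb and 0.266 (0.232 to 0.305) beyond 50 Mb. The interval of the outermost zone lay above those of both zones beyond 20 Mb. The wide share of 6 h peaks without a counterpart was 13.6% (10.2 to 17.6%) in the outermost zone and 12.0% (10.5 to 13.6%) beyond 50 Mb, and these intervals overlap.

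Most 1 Mb windows that held a member held only 1 (411 windows), 81 held 2, 24 held 3, 8 held 4 and 3 held 5. The 3 fullest windows began at 54000001 on chromosome 11, at 101000001 on chromosome 12 and at 176000001 on chromosome 6. In the chromosome 11 window the 6 h list had 12 peaks of any width and the 4-week list had none. The chromosome 12 window had 10 at 6 h and 7 at 4 weeks, and the chromosome 6 window 19 and 3. A window of 4 members at 49000001 on chromosome 7 likewise held 12 peaks of the 6 h list and none of the 4-week list. The fullest windows thus included some with no 4-week peak and some with several. These windows were picked for their number of members after the values were seen.

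The longest stretch without a member was on chromosome 17, from 42260356 to 88235504, a span of 45.98 Mb. It was not empty of peaks: it held 49 peaks at 6 h and 36 at 4 weeks. Of these 6 h peaks 48 had no counterpart, and the widest of them was 397 bp, just below the limit. The 1 other 6 h peak was 400 bp or wider and overlapped a 4-week peak. The stretch was picked as the longest without a member, so none of the 48 could reach 400 bp, and this is a description. The next longest were 26.4 Mb on chromosome 2 (108529983 to 134895889) and 25.9 Mb on chromosome 6 (6637507 to 32528295), with 36 and 30 peaks without a counterpart, of which the widest were 350 and 377 bp.

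Members were mostly solitary at short range. Another 6 h peak lay within 10 kb of 144 of them, or 20.8% (17.8 to 24.03%), beside 18% of the 6396 peaks of any width in the searched stretches. The share was 18.1% (12.4 to 25.04%) for wide peaks that overlapped a 4-week peak and 17.2% (16.2 to 18.2%) for narrower 6 h peaks without a counterpart. These intervals overlap one another. The highest share, 24.4% (20.002 to 29.3%), was that of narrower 6 h peaks that overlapped a 4-week peak. That interval overlaps those of the members and of the other wide peaks. It does not overlap that of the narrower peaks without a counterpart. With the runs of 5 or more kept, which adds peaks with close neighbours by construction, the share of members was 31.4%. Within 100 kb, 63.0% (59.3 to 66.6%) of members had another 6 h peak, against 55.8% (54.4 to 57.2%) of narrower peaks without a counterpart, where the intervals do not overlap, and 56.9% of all 6396 peaks. It was 56.8% (48.6 to 64.7%) of wide and 61.8% (56.4 to 66.9%) of narrower peaks that overlapped a 4-week peak, and both intervals overlap that of the members. The median gap to the nearest 6 h peak was 61.4 kb (quartiles 14.6 and 149.9 kb) for members and 79.1 kb for the narrower peaks. Of the 692, 510 (73.7%) had no peak of either list within 10 kb and 191 (27.6%) had none within 100 kb. Leaving out runs and overlapping peaks favours both shares by construction. The same counts were not made over all 6396 peaks, so these are not read as particular to the members.

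By the gap limit of 10 kb, 548 members stood alone, 104 were in pairs of 6 h peaks, 34 in runs of 3 and 6 in runs of 4. As shares these were 79.2, 15.03, 4.91 and 0.867% of the members, beside 82.02, 14.3, 3.10 and 0.563% of all 6396 peaks in the searched stretches. The interval of the members for runs of 3 (3.43 to 6.80%) lay above 3.10%. The other intervals included the values of all 6396 peaks. Runs of 2 to 4 peaks with a member numbered 130, of which 13 held 2 or more members. Median widths were 473 bp for lone members, 475.5 bp in pairs, 469 bp in runs of 3 and 536 bp for the 6 members in runs of 4. The closest 6 h neighbours of a member were 154 bp away, on chromosome 13 beside the peak at 93138928. Another 6 h peak lay within 1 kb of 79 members.

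The members with most company were at chr2:7170097-7170587 (491 bp), with 26 other 6 h peaks and 6 4-week peaks within 100 kb, and at 7217692 to 7218200 (509 bp), with 17 and 6. Runs that the rule leaves out held 21 of those 26 and 12 of those 17. They also held 9 of the 12 neighbours of the chromosome 11 member at 8373012. Next came a member at chr13:103379033-103379605 (573 bp), with 10 other 6 h peaks, 8 of them in such runs, and no 4-week peak within 100 kb. A member at chr6:176172543-176173004 (462 bp) also had 10, none in such a run, with 2 4-week peaks.

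A member without an overlapping 4-week peak could still lie right beside one. A 4-week peak was within 1 kb of 51 members, or 7.37% (5.54 to 9.58%), beside 4.7% of the 5893 peaks of any width without a counterpart. For the narrower ones among those the share was 4.35% (3.81 to 4.94%), and the 2 intervals do not overlap. Gaps were counted from edge to edge, and the rule used width and overlap, so these shares are a description and not a test. Between 1 and 10 kb the share was 3.32% (2.12 to 4.95%) of members and 3.69% (3.20 to 4.24%) of narrower peaks, with overlapping intervals. Within 10 kb as a whole the share was 10.7% (8.49 to 13.2%) of members, beside 8.35% of the 5893. This value depends on what counts as a counterpart: it was 3.59% with the near misses of up to 1 kb left out and 21.1% where only a reciprocal overlap of 50% counted. The share within 1 kb was 6.60% (4.43 to 9.40%) for members of 400 to 499 bp, 8.92% (4.96 to 14.5%) for those of 500 to 599 bp, 5.68% (1.87 to 12.8%) for those of 600 to 799 bp and 17.4% (4.95 to 38.8%) for the 23 of 800 bp or more. Below the limit it was 4.28% (3.59 to 5.06%) at 199 to 249 bp, 4.97% (3.73 to 6.46%) at 250 to 299 bp and 3.93% (2.86 to 5.25%) at 300 to 399 bp. The share thus showed no steady rise with width. The mirror-image set had near misses too: 37 of the 286 wide 4-week peaks without a counterpart (12.9%, 9.27 to 17.4%) had a 6 h peak within 1 kb and 61 (21.3%, 16.7 to 26.5%) within 10 kb, values that the longer 6 h list also raises.

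**Figure D4:**
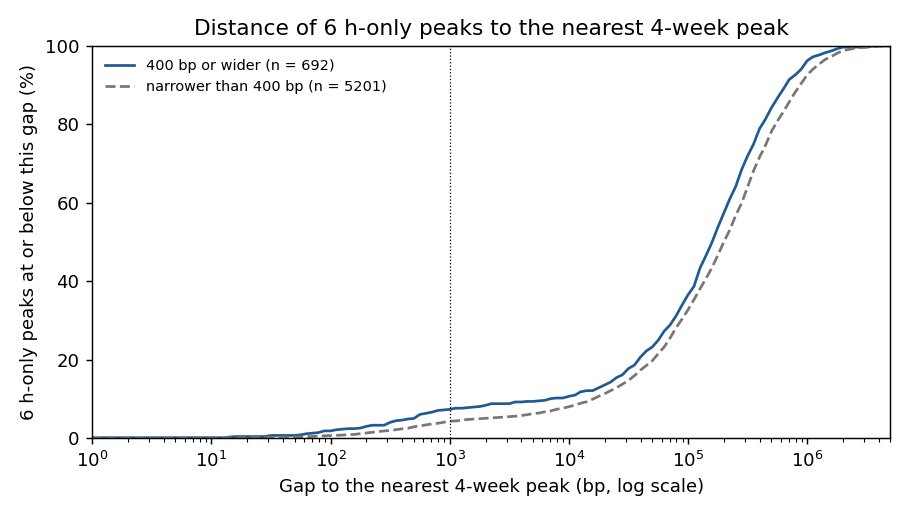
Cumulative share of 6 h peaks without a 4-week overlap (y axis, percent) by the gap to the nearest 4-week peak (x axis, bp, log scale), for the 692 peaks of 400 bp or more (solid) and the 5201 narrower ones (dashed). At the dotted line at 1 kb the solid line is at 7.37% and the dashed line at 4.35%.

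Among the 51 near misses the median gap was 301 bp, and 13 were closer than 100 bp. The closest pair was on chromosome 14, where the member at 95350831 to 95351289 (459 bp) was 1 bp from the 4-week peak at 95351291 to 95351710 (420 bp). On chromosome 10 the member at 63041052 to 63041506 (455 bp) was 14 bp from the 4-week peak at 63041521 to 63041789 (269 bp). On chromosome 4 the member at 3067273 to 3067731 (459 bp) began 16 bp after the 4-week peak at 3066946 to 3067256 (311 bp). Gaps of 30 and 31 bp were found at chr10:30792578-30792997 (420 bp) and at chr3:13468012-13468514 (503 bp). In such pairs the 2 lists placed their peaks side by side, and a rule with a small tolerance would have counted them as called at both times.

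The 4-week peaks beside these 51 members had a median width of 294 bp (199 to 648 bp). All 4-week peaks kept by the same limits, with runs counted in the 4-week list, had a median of 258 bp. The member was the wider of the pair in 47 cases, which its lower limit favours by construction. Of the 51 nearby 4-week peaks, 15 (29.4%, 17.5 to 43.8%) overlapped another 6 h peak, as at the chromosome 6 region above, and 36 overlapped none. Over all 4-week peaks kept by those limits 16.7% overlapped a 6 h peak. The 51 were picked for lying within 1 kb of a 6 h peak and were not held to those limits, so the shares are not like for like. Another 6 h peak lay within 10 kb of 22 of the 51.

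At the other end, the members farthest from any 4-week peak were a pair on chromosome 6, at 100580237 to 100580671 (435 bp) and 101227120 to 101227615 (496 bp). They lay 3517 and 3495 kb from the nearest 4-week peak, and the closest 6 h peaks were 442 and 646 kb away. Next came chr4:146454017-146454541 (525 bp), chr18:43530065-43530681 (617 bp) and chr12:98575242-98575740 (499 bp), at 1833, 1821 and 1815 kb. A 4-week peak was 1 Mb or more away from 26 members (3.76%, 2.47 to 5.46%), and from 384 (7.38%, 6.69 to 8.13%) of the narrower peaks without a counterpart. These intervals do not overlap, but the rule used width and overlap, so this too is a description and not a test. The median distance was 160 kb, with quartiles of 56.4 and 354 kb, and for the narrower peaks without a counterpart the median was 199 kb.

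The last comparison is where the members stood in the row order of the 6 h list. Of 6438 neighbouring rows on the same numbered chromosome, 6434 were in rising order of position, in blocks of up to 178 rows that start over many times down the list. This is the layout of a list ordered first by something other than position and then, among ties, by position. What that was is not given in the sources used here, so the order is reported as it stands. Among the first 6675 rows, the upper part of the list, lay 352 members, or 50.9% (47.1 to 54.7%), beside 39.3% of the 6396 peaks of any width in the searched stretches. The share was 68.4% (60.4 to 75.6%) of wide peaks that overlapped a 4-week peak and 36.0% (34.7 to 37.3%) of narrower peaks without a counterpart, and neither interval overlaps that of the members. Narrower peaks that overlapped a 4-week peak stood at 52.01% (46.6 to 57.4%), an interval that overlaps that of the members. The groups also differ in width, and these shares were not matched for width.

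**Figure D5:**
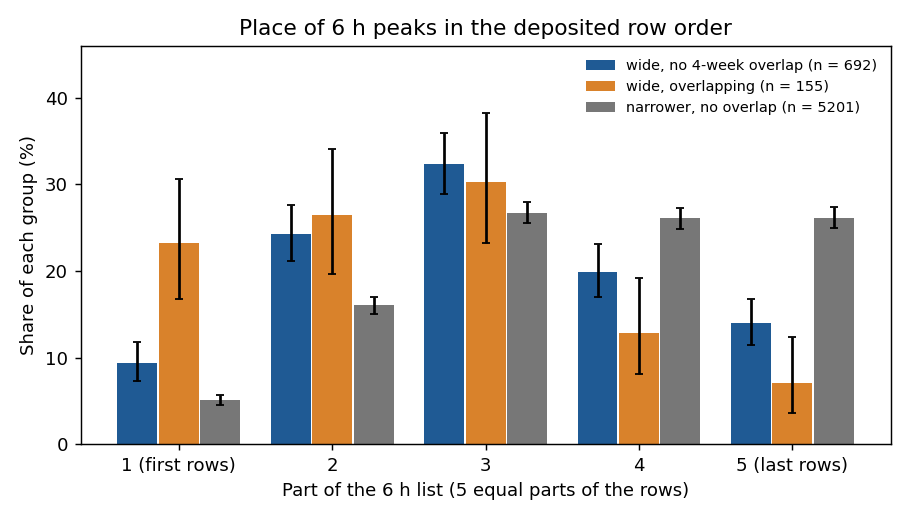
Share of each group of 6 h peaks (y axis, percent) by place in the deposited list, cut into 5 equal parts of its rows (x axis), with exact 95% binomial intervals. Part 3 holds the largest share of each group: 32.4% of members, 30.3% of overlapping wide peaks and 26.7% of narrower peaks without overlap. It also holds 27.6% of all 6396 peaks in the searched stretches. Part 1 holds 23.2% of overlapping wide peaks against 9.39% of members. Part 5 holds 26.1% of narrower peaks without overlap against 14.02% of members.

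Within the members, the place in the list went with width. The first 6675 rows held 45.8% (40.9 to 50.6%) of members of 400 to 499 bp, 52.9% (44.8 to 60.9%) of those of 500 to 599 bp, 63.6% (52.7 to 73.6%) of those of 600 to 799 bp and 82.6% (61.2 to 95.05%) of the 23 members of 800 bp or more. Below the limit this order did not hold, since the share was 38.9% (37.1 to 40.6%) at 199 to 249 bp and 29.7% (26.99 to 32.5%) at 300 to 399 bp. Of the widest 15 members 12 were among these rows, the earliest being the chromosome 3 member at 36330156, in row 784. The 3 in later rows were the third widest, on chromosome 6 (row 9255), the one of 999 bp on chromosome 1 (row 6947) and the one of 945 bp on chromosome 7 (row 7378). Of the 51 members within 1 kb of a 4-week peak, 31 (60.8%) were among the first 6675 rows.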

How the data were processed

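HIF-1α ChIP-seq was deposited for 4 samples of infarcted rhesus heart. The submitters' processing notes name Bowtie2 2.0 and MACS2. They state neither settings, the MACS2 version, the build and filters nor any pooling, all of it thus not given in the sources used here. What the authors deposited are start and end positions of peaks, and the file names show that the authors called each list against the matching input.

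Members were found by the rule with Python 3.11.15, pandas 2.3.3 and numpy 2.4.6, and overlaps of 1 bp were checked with bedtools 2.31.1. Intervals are exact 95% binomial (Clopper-Pearson) or Poisson intervals from scipy 1.17.1. These describe counting error alone, with peaks taken as independent, although neighbours are not. No test was made between time points, since each has 1 ChIP library. On simulated lists with 1779 planted members the rule found all 1779 and no other region. The planted members were defined by the conditions of the rule, so this checks the code and not the detection of binding. Figures were drawn with matplotlib 3.10.9.

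Members, classes and alternatives were chosen with earlier results of these data known. Named regions were the widest 15, the widest per chromosome, and the 5 nearest to a 4-week peak, farthest from one, and with most 6 h peaks within 100 kb. Others were picked after their values were seen. The gene table used here names an assembly and the peak lists name none, and no genome sequence was used, so promoters, HIF response elements and gene lists were not analysed here.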

Additional observations from a re-analysis of the deposited data

How the results depend on the processing

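With 10 results under 9 changes of the member rule, 62 of 90 values were inside the reported interval (for the count of members, inside 1.5 times) and 28 were outside. Results on the 1 kb distance, the row order and single chromosomes were added after the data were seen. A width limit of 300 bp gave 1787 members, a median of 370 bp, 0.745 members per Mb, 86.3% without overlap, 37.9% among the first 6675 rows and 5.26% within 1 kb of a 4-week peak. A limit of 500 bp gave 268 members, 578.5 bp, 0.112 per Mb, 74.9% without overlap and 58.96% among those rows. Requiring no 4-week peak within 1 kb gave 0.267 per Mb, 75.7% without one, 3.59% within 10 kb and, by construction, 0% within 1 kb. Asking only for no reciprocal overlap of 50% gave 0.327 per Mb and 92.4% without overlap, with 18.1% within 1 kb and 21.1% within 10 kb, where partly overlapping pairs are counted. With runs of 5 or more kept, the density was 0.333 per Mb, 31.4% had another 6 h peak and 16.02% a 4-week peak within 10 kb; with runs of 3 or more left out, 15.95% had another 6 h peak. Chromosome 17 went from 0.164 to 0.753 members per Mb with runs kept. At 300 and 500 bp chromosome 10 had 1.26 and 0.236 members per Mb, against 0.563, and chromosome 17 had 0.524 and 0.0218. Each setting admits or removes peaks, and why the values moved was not tested. Limits on the chromosome ends and all 20 chromosomes moved none of the 10 results. With all 20 chromosomes the densities on chromosomes 10 and 17 could not change, yet they count among the 62. The density over all of them was then 0.310 per Mb, close to the upper limit of 0.311. The alternatives planned for promoters and HIF response elements could not be run without a genome sequence. No paired analysis was possible because only 1 ChIP library stands for each time. Read depth is not known, and neither is the number of 4-week peaks missed for lack of reads.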
